A study of Mus musculus with 8 samples.

Results

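Metallothioneins Mt1 and Mt2 and 7 redox genes driven by the transcription factor NRF2 (Hmox1, Nqo1, Gclc, Gclm, Srxn1, Txnrd1 and Slc7a11) were followed in mouse lung after removal of the left lung. The 9 genes were taken by name from the array annotation, as rows with that single gene symbol, out of 18193 genes so annotated. They hold 18 of the 45037 probe sets tested, and of several probe sets of a gene the brightest on average is used, with the others as a check.

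Female C57BL/6 mice 10 to 12 weeks old underwent left pneumonectomy (PNY), or a SHAM thoracotomy that spared the lung. Lungs were collected at 6 hours and at 1, 3 and 7 days. All animals of both groups had been anesthetized with ketamine and xylazine, ventilated and given ampicillin, with buprenorphine against pain. Equal amounts of lung from 8 mice per group and time were pooled, and the RNA of each pool was run on 1 Affymetrix mouse expression array, giving 4 PNY and 4 SHAM arrays. Values are log2 expression by RMA (robust multi-array average), so a difference of 1 is a 2-fold change. An array gives the mean of a pool, and no P-value below measures the spread between mice. The P-values of the fits (limma) and of the exact tests rest on the spread between pools. Those pools come from different times, and a fit with time point as a block first takes out the time differences. A rank product P instead sets a gene's ranks against ranks from values permuted over probe sets within each array. No unoperated lung was part of the design, so values at 6 hours are set against later times and not against a baseline.

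Metallothioneins are small cysteine-rich proteins that bind zinc and copper. Their genes are switched on by the zinc sensor MTF1 through metal response elements (MRE), and also by glucocorticoids and by IL-6 through STAT3. NRF2 (gene Nfe2l2) is held in check by KEAP1, which marks it for degradation, and oxidants or electrophiles release it to act with small MAF proteins at antioxidant response elements (ARE). Its targets supply glutathione and thioredoxin, break down heme and detoxify quinones, and in lung they are known for protection against inhaled oxidants.

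The array distributions were alike, with medians between 5.90 and 5.95. Lung epithelial markers were near the top of the array scale in all 8 arrays, as in Sftpc, a surfactant protein gene, with 14.65 to 14.69 where the highest value of any probe set was 14.82. Probes this bright show little of any difference in the amount of epithelium. Aqp5, an alveolar type I marker that is less bright, differed by -0.45 between 6 hours and later (limma adjusted p = 0.0536). The PNY array of 1 day stood apart by thymocyte genes: the linear values of 5 thymus markers summed to 1954 there, against at most 331 in any other array, and Rag1 had 9.60 there. Markers of neutrophils (6 of the 7 listed were measured) summed to 17634 in PNY and 16287 in SHAM at 6 hours, against 3573 to 12124 in the 6 later arrays, so the groups did not overlap. All 6 were higher on average at 6 hours but only Cxcr2, a neutrophil chemokine receptor, passed the test. The sum of 5 liver markers was likewise higher at 6 hours, at 824 in PNY and 775 in SHAM against 402 to 660 later, with 0 of the 5 genes past the test. The thymus sum was lower at 6 hours, at 222 in PNY and 253 in SHAM against 269 to 1954 later. Of its 5 genes, 0 were higher on average at 6 hours and 0 passed the test, with a median of -0.58. Sums for club cells, macrophages, lung epithelium, and endothelium with mesenchyme overlapped between 6 hours and later times, those with epithelial markers being led by the bright probes above. The surgeries also differed in markers at 7 days, with 1 array each and no test. Neutrophil markers summed to 3573 in PNY and 11136 in SHAM there, and all 6 were at least 1.5-fold lower in PNY (1.48% of all genes). Of 6 skeletal and cardiac muscle markers, 4 were at least 1.5-fold higher in PNY at 7 days (1.98% of all genes), with sums of 4548 and 2853. The part of these cell markers in the results below was not tested, and in whole lung fewer cells of a type and less RNA per cell cannot be told apart.

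The promoter sequences are shown first, because MRE and ARE are elements by which metallothionein and NRF2 target genes are known to be induced. The part of these elements in the values below was not tested, and elements for glucocorticoids or STAT3 were not searched. RefSeq windows (GRCm38.p6, from 250 bases before to 50 bases after the annotated start) were found for 7 of the 9 genes. MRE were searched as TGCACNC or TGCGCNC and ARE as TGACNNNGC or TGAGNNNGC, on both strands. At least 1 MRE match was found in 25.7% of all 32851 windows, and at least 3 in 1.97%. For ARE, at least 1 match was found in 27.8% and at least 3 in 0.63%. A match to these letters is a description and not a shown binding site. Capitals mark MRE matches in Mt1 and ARE and MRE matches in Mt2. In Srxn1 and Gclm, capitals mark ARE matches, the one in Gclm lying on the opposite strand.
Mt1, chr8:94178989-94179088, plus strand, the 100 bases before the start: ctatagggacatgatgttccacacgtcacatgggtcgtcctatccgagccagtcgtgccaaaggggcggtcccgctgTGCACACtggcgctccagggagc
Mt1, chr8:94179089-94179118, plus strand, the first 30 bases after the start: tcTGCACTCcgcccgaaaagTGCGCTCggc
Mt2, chr8:94172368-94172617, plus strand, the 250 bases before the start: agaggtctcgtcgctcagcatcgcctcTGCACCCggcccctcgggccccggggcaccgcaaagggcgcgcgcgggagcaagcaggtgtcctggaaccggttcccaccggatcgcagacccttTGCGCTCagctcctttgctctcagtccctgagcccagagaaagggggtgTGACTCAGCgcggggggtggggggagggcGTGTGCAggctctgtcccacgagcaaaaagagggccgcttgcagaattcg
Srxn1, chr2:152105404-152105523, plus strand, the 120 bases before the start: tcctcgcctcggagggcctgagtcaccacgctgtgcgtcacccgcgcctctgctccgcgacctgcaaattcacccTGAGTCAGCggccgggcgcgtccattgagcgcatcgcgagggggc
Gclm, chr3:122245397-122245556, plus strand, the 160 bases before the start: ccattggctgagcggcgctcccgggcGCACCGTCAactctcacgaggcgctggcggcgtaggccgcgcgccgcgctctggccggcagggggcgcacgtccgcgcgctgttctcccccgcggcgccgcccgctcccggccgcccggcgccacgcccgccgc

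RefSeq's start of Mt1 was taken as given, and whether lung uses this start cannot be told from the arrays, so that the place of its last MRE matches after the start holds for that annotation alone. In the whole windows, Mt1 held 3 MRE matches and 0 ARE matches. Mt2 held 4 MRE matches, and its 1 ARE match overlapped the AP-1 letters TGANTCA, which lie in 7.81% of windows. The 2 annotated starts lie 6471 bases apart on chromosome 8. Srxn1 held 3 ARE matches, 1 of them overlapping AP-1 letters, and 1 MRE match. Gclm held 1 ARE match and 3 MRE matches. For Slc7a11, 1 ARE match and 0 MRE matches were found. Of the 3 Txnrd1 starts, 1 had a single ARE match. Nqo1 had none of either kind in its window, which says only that these letters are not in that stretch. Hmox1 and Gclc were not searched.

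All 9 genes were higher at 6 hours after surgery than later, after SHAM as after PNY, with the metallothioneins ahead of the redox genes. Mt2 was 9.66-fold and Mt1 6.38-fold higher at 6 hours than over 1, 3 and 7 days. The 7 redox genes were between 1.74-fold (Gclc) and 2.46-fold (Hmox1) higher. Each of the 9 passed the test (limma with surgery as a term, Benjamini-Hochberg over all 45037 probe sets, adjusted p under 0.05), where 3.16% of the 18193 genes were called higher at 6 hours and 7.01% lower. In all 9 genes both arrays of 6 hours lay above all 6 later arrays, which 11.3% of all genes did. Among all genes ordered by this difference, Mt2 ranked 1 and Mt1 5, with the redox genes between rank 50 (Hmox1) and 217 (Gclc). The same separation stands out in the plot of values by time.

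**Figure D1:**
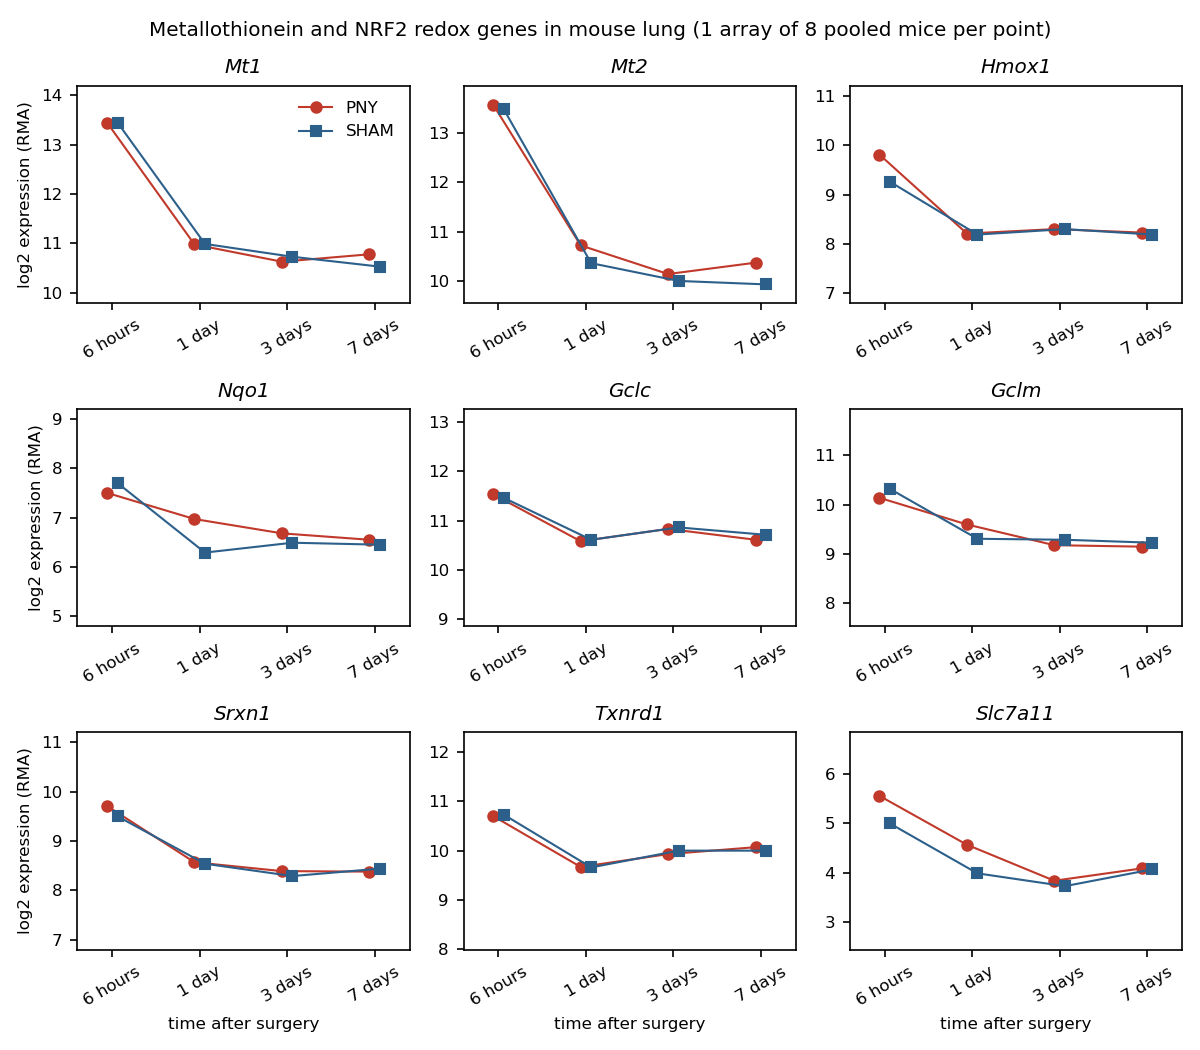
Log2 expression (RMA) of the 9 genes on the vertical axis by time since surgery (6 hours to 7 days), for PNY (circles) and SHAM (squares); each point is 1 array of RNA pooled from 8 mice, and every panel spans the same number of log2 units. In each panel both points at 6 hours lie above the 6 later ones, as in Mt2 with 13.57 and 13.48 at 6 hours against at most 10.72 later.

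The metallothioneins come first. Mt2 had 13.57, 10.72, 10.14 and 10.37 at 6 hours, 1, 3 and 7 days after PNY, and 13.48, 10.36, 10.00 and 9.93 after SHAM. The 6-hour arrays were thus high after both surgeries, with no overlap, and the 1-day value was the highest of the later ones within each surgery. The difference between 6 hours and later was 3.27 (95% interval 2.89 to 3.65, limma adjusted p = 0.000118). Mt1 had 13.45, 10.98, 10.63 and 10.78 in PNY and 13.45, 10.99, 10.73 and 10.53 in SHAM at the same times. Its 6-hour values were equal to 2 decimals in the 2 surgeries, and its difference from later times was 2.67 (95% interval 2.36 to 2.98, limma adjusted p = 0.000118). The Mt1 probe set is of a kind that can match several related transcripts. The only other Mt1 probe set, a dim one, showed a smaller difference of 0.52 (limma adjusted p = 0.0152), in the same direction.

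Hmox1 encodes heme oxygenase, which breaks heme down to biliverdin, carbon monoxide and iron. Its values were 9.81, 8.21, 8.30 and 8.23 in PNY and 9.26, 8.19, 8.30 and 8.19 in SHAM. The 6 later arrays lay within 8.19 to 8.30, and both arrays of 6 hours were well above them. The difference was 1.30 (95% interval 1.02 to 1.58, limma adjusted p = 0.00117). Nqo1, a quinone reductase used widely as a readout of NRF2, had 7.50, 6.97, 6.68 and 6.55 in PNY and 7.70, 6.29, 6.49 and 6.45 in SHAM. At 6 hours SHAM was the higher of the 2 surgeries, and over both the difference from later times was 1.03 (95% interval 0.69 to 1.37, limma adjusted p = 0.00563).

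Genes of glutathione supply were also higher at 6 hours. Gclc and Gclm encode the catalytic and the modifier subunit of glutamate-cysteine ligase, the rate-limiting enzyme of glutathione synthesis. Gclc had 11.53, 10.58, 10.83 and 10.61 in PNY and 11.46, 10.61, 10.86 and 10.71 in SHAM, a difference between 6 hours and later of 0.80 (95% interval 0.55 to 1.05, limma adjusted p = 0.0045). Gclm had 10.14, 9.60, 9.18 and 9.15 in PNY and 10.32, 9.31, 9.29 and 9.23 in SHAM, a difference of 0.94 (95% interval 0.64 to 1.23, limma adjusted p = 0.00487). A second probe set of each gene passed the same test, with 0.86 for Gclc and 1.15 for Gclm. Slc7a11 encodes the transport subunit of the cystine/glutamate exchanger, which brings in cystine, a source of cysteine for glutathione. It had 5.56, 4.57, 3.84 and 4.09 in PNY and 5.00, 3.99, 3.73 and 4.07 in SHAM, and it is the 1 gene of the 9 whose mean level lay below the median of all probe sets (5.92). Both 6-hour values were above all later ones, and the difference was 1.24 (95% interval 0.82 to 1.65, limma adjusted p = 0.00616). The same 1.24 was found in its other probe set (limma adjusted p = 0.0142). Both sizes are set against later values near the low end of the array scale.

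Srxn1 and Txnrd1 serve the thioredoxin system. Srxn1 encodes sulfiredoxin, which repairs overoxidized peroxiredoxins, and had 9.71, 8.57, 8.39 and 8.38 in PNY and 9.50, 8.54, 8.29 and 8.44 in SHAM. This probe set too can match several transcripts. The difference was 1.17 (95% interval 0.93 to 1.41, limma adjusted p = 0.00112). Of its 3 other probe sets, 2 were also called higher (1.34 and 1.45), while the dimmest showed 0.33 (limma adjusted p = 0.182). Txnrd1 encodes the cytosolic thioredoxin reductase and had 10.70, 9.67, 9.93 and 10.07 in PNY and 10.73, 9.66, 10.00 and 10.00 in SHAM. In this probe set the 2 arrays of 1 day were the lowest of all 8 arrays, below those of 3 and 7 days. Neither other probe set of Txnrd1 showed this, and in 1 of them SHAM at 1 day (7.37) was the highest later value. The difference between 6 hours and later was 0.83 (95% interval 0.53 to 1.13, limma adjusted p = 0.00854), and both other probe sets were called higher (1.18 and 0.76).

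Ordered by this difference, the 95% intervals of Mt2 and Mt1 overlapped each other and lay above those of the 7 redox genes. Among the redox genes the interval of each overlapped that of its neighbour in the order, and those of Hmox1 and Gclc also met. Taken by surgery, the difference was 3.16 in PNY and 3.38 in SHAM for Mt2, and 2.65 and 2.69 for Mt1 in the same order. Hmox1 had 1.56 in PNY and 1.03 in SHAM, whereas Nqo1 had 0.77 in PNY and 1.29 in SHAM. Tested as an interaction of surgery with 6 hours against 1, 3 and 7 days, the difference between surgeries was called in 0 of the 9 genes (limma adjusted p = 0.999 for Hmox1 and for Nqo1). That test rests on 1 array per surgery at 6 hours.

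**Figure D2:**
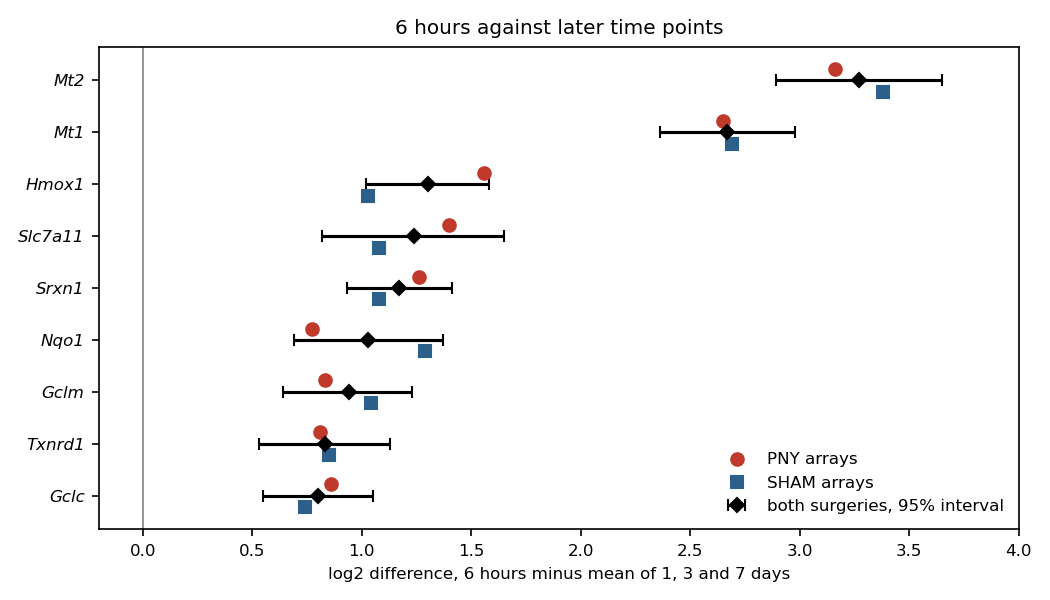
Log2 difference between 6 hours and the mean of 1, 3 and 7 days on the horizontal axis for each of the 9 genes; diamonds with bars are the estimate over both surgeries with its 95% interval from limma, circles the 4 PNY arrays alone and squares the 4 SHAM arrays alone. All 9 intervals lie above 0, with Mt2 (3.27) and Mt1 (2.67) apart from the range of 0.80 to 1.30 of the other genes.

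For a single gene, an exact two-sided permutation test over the 28 ways of choosing 2 of 8 arrays gave P = 0.0357 for each of the 9, the smallest it can give. The calls rest on 2 arrays at 6 hours. Without the PNY array of 6 hours 5 genes remained called (Mt1, Mt2, Hmox1, Nqo1 and Srxn1), and without the SHAM array of 6 hours 4 did (Mt1, Mt2, Hmox1 and Srxn1). With 1 day alone in place of all later times, 7 of 9 were called, and Gclm (0.77, limma adjusted p = 0.0653) and Nqo1 (0.97, limma adjusted p = 0.0734) were not. Without the PNY array of 1 day, which held the thymocyte genes, all 9 were called.

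The difference between PNY and SHAM was small beside that between times. The comparison asks which genes differ between surgeries when the 4 time points are taken as replicates. By rank products over the 16 PNY and SHAM array pairs (P under 0.001 from permutations, fold change of at least 1.5) 0 of the 9 genes were called, where 0.506% of all genes were called higher in PNY and 0.0605% lower. In none of the 9 were the 4 PNY arrays all above the 4 SHAM arrays, as 0.857% of genes were. At the same time point, PNY was above SHAM at all 4 times in 2 of the 9 genes, Mt2 and Slc7a11, against 9.36% of all genes. With limma, 0 of the 9 and 0 of all probe sets passed an adjusted p of 0.05, both without and with time point as a block. At an unadjusted p under 0.05 those counts were 902 of all probe sets and 0 of the 9 genes without the block, and 2484 and 2 with it.

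Mt2 averaged 11.20 in PNY and 10.94 in SHAM. The difference was 0.26 ± 0.17 (SD over the 4 time points), with 0.09, 0.36, 0.14 and 0.45 at 6 hours, 1, 3 and 7 days. Its rank product P was 0.000454, below the threshold, but its fold change of 1.20 was not. With time point as a block the 95% interval was 0.04 to 0.48 (limma, unadjusted p = 0.0241, adjusted p = 0.901). An exact permutation test over the 70 splits of the arrays, which takes them as unpaired and cannot go below 0.0286, gave P = 0.514. Leaving out single arrays changed the call: Mt2 passed without the PNY array of 3 days (0.61, P = 0.000105 by permutation) and without the SHAM array of 6 hours (1.11, P = 2.7e-05 by permutation), and both of these leave the 2 surgeries with unequal times. Mt1 did not follow Mt2 here, with a difference of 0.03 ± 0.15 and PNY higher at 2 of 4 times. Its rank product P was small both ways (0.0178 for higher and 0.0358 for lower), and that test also ranks pairs of arrays from different times.

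Slc7a11 averaged 4.51 in PNY and 4.20 in SHAM, a difference of 0.32 ± 0.30. The 4 differences were 0.56, 0.58, 0.11 and 0.01 in order of time. The late minus early difference of -0.51 did not pass the test (95% interval -1.75 to 0.74, limma unadjusted p = 0.375, adjusted p = 1). The block fit gave a 95% interval of 0.04 to 0.59 (limma, unadjusted p = 0.0305, adjusted p = 0.901), and its rank product P was 0.00539. In its other probe set PNY was 5.87 and SHAM 4.53 at 6 hours, but 3.95 and 4.02 at 7 days. Most of its values after 6 hours in both probe sets lie near the lower quartile of the arrays (4.02 to 4.18) and are not shown to be above background.

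Single time points have 1 array per surgery and no test. By the brightest probe sets, Nqo1 at 1 day was the only value of the 9 genes past 1.5-fold, with 6.97 in PNY and 6.29 in SHAM (1.61-fold). The other probe set of Slc7a11 was past it at 6 hours, with 5.87 in PNY and 4.53 in SHAM (2.53-fold). Hmox1 at 6 hours (1.46-fold) and Slc7a11 at 6 hours and 1 day (1.47-fold at 6 hours and 0.58 on the log2 scale at 1 day, just under the threshold) came next. Over all genes the share at least 1.5-fold higher in PNY was 0.682% for 6 hours, 1.88% for 1 day, 1.14% for 3 days and 1.98% for 7 days. The share at least 1.5-fold lower was 1.04%, 1.09%, 0.511% and 1.48% at the same times. The Nqo1 value at 1 day comes from the PNY array with the thymocyte genes, whose part in it was not tested.

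**Figure D3:**
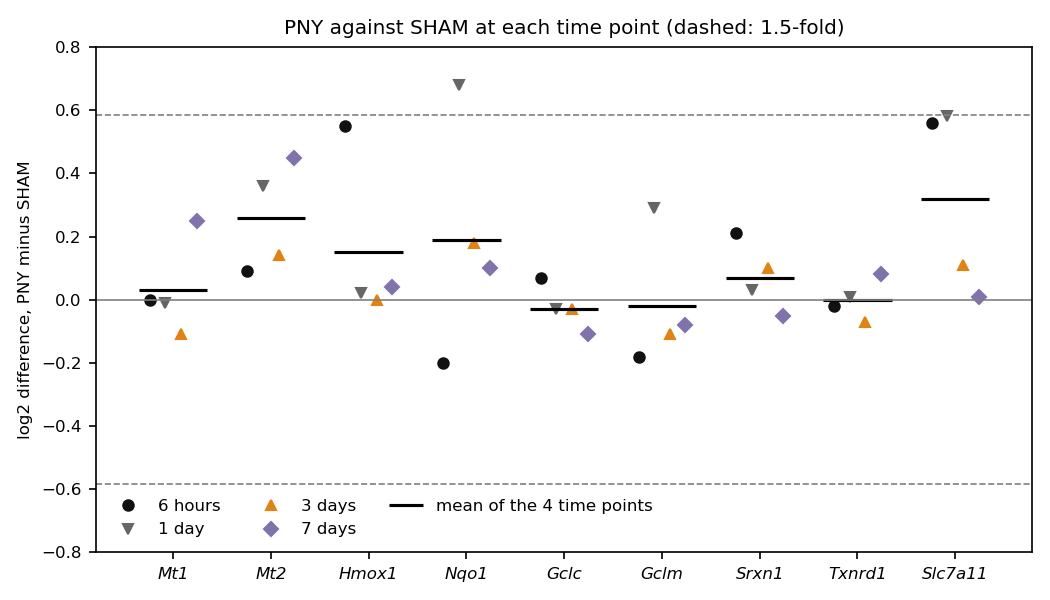
Log2 difference between PNY and SHAM on the vertical axis for each of the 9 genes at the 4 time points (symbols), with their mean (black bar) and dashed lines at a 1.5-fold change. Points are values of the brightest probe sets. Nqo1 at 1 day (0.68) is the only point beyond a dashed line, and the means run up to 0.32 in Slc7a11.

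For Gclc, Gclm, Srxn1 and Txnrd1 the surgeries lay close together. With time point as a block, the 95% interval of the PNY difference was -0.21 to 0.16 for Gclc, -0.25 to 0.21 for Gclm, -0.12 to 0.27 for Srxn1 and -0.18 to 0.18 for Txnrd1 (limma). These intervals are not adjusted for the number of genes and are not limits of detection, since Slc7a11 with 0.32 and Mt2 with 0.26 did not pass the adjusted threshold either. Whether the PNY difference changed between the early times (6 hours and 1 day) and the late ones (3 and 7 days) was tested as an interaction in limma. It was called in 0 of the 9 genes and 0.0% of all genes, with 1246 of all probe sets and 0 of the 9 genes at an unadjusted p under 0.05. The early group spans the 6-hour and the 1-day levels, and the 95% interval for Mt2 was -3.33 to 3.47.

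The 9 genes were compared with the other genes of their pathways, on lists written from general knowledge. In the NRF2 pathway itself Nfe2l2 (0.06, limma adjusted p = 0.778) and Keap1 (0.23, limma adjusted p = 0.188) did not pass the test between 6 hours and later. Of 9 regulators measured, 3 were higher at 6 hours and 0 lower. They were Maff (1.28), a small MAF partner of NRF2, Sqstm1 (0.65), which encodes the autophagy adaptor p62 that binds KEAP1, and Bach1 (0.51), a repressor at the same elements. The median of the list was 0.50, against -0.01 over all genes. Maff had 9.80 at 6 hours and 8.41 to 8.66 later in PNY, and 9.60 at 6 hours and 8.15 to 8.48 later in SHAM.

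Most other NRF2 targets did not pass the test. Of 21 measured, 3 were higher at 6 hours, where 3.16% of all genes were, and 0 lower, with a list median of 0.10. In 8 of the 21 both 6-hour arrays lay above all later ones, which 11.3% of all genes did. Those 3 were Osgin1 (1.01), an oxidative stress induced growth inhibitor, Cbr3 (0.68), a carbonyl reductase, and Pgd (0.41), an enzyme of the pentose phosphate pathway. Just short of the threshold were Gpx2 (0.51, limma adjusted p = 0.0517), a glutathione peroxidase, and Gsr (0.40, limma adjusted p = 0.0506), the glutathione reductase. Other classic targets such as Gstm1 (0.10), Me1 (0.04), Txn1 (-0.03) and Ephx1 (-0.01) did not pass the test. In glutathione synthesis and use 2 of 10 were higher and 0 lower, and the median was 0.06. These were Chac1 (1.00), which degrades glutathione, and Slc3a2 (0.61), the chaperone subunit that pairs with the Slc7a11 product. Gss, the second enzyme of glutathione synthesis, had -0.04 (limma adjusted p = 0.874).

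Among 13 superoxide, peroxide and thioredoxin genes 2 were higher at 6 hours, 1 was lower and the median was -0.05. Sesn2 (0.87) encodes a stress-induced sestrin and Txnip (0.83) an inhibitor of thioredoxin, while Prdx2 (-0.46) is a peroxiredoxin. The superoxide dismutases Sod1 (0.06), Sod2 (0.08) and Sod3 (-0.22) and catalase (Cat, -0.19) did not pass. In metal sensing and zinc transport 1 of 13 was higher and 0 lower, with a median of 0.04. That gene was Slc39a14 (1.06), a zinc and iron importer known to be induced by IL-6 in liver. The metal sensor Mtf1 (-0.07), the zinc exporter Slc30a1 (-0.06), itself a known MTF1 target, and the other metallothioneins Mt3 (0.28) and Mt4 (0.04) did not pass. In heme and iron handling 2 of 13 were higher, 0 lower and the median -0.01. They were Slc40a1 (0.83), the iron exporter ferroportin, and Cd163 (0.83), a macrophage receptor for haptoglobin-hemoglobin complexes. Hmox2, the constitutive heme oxygenase, had -0.13 and ferritin heavy chain Fth1 0.03, neither past the test. Fth1 read 14.27 to 14.31 in all 8 arrays, near the top of the array scale, where probes show little of any difference.

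Glucocorticoid-induced genes were set beside the 9 genes as well, and the part of glucocorticoids in the 6-hour values was not tested. Of 12 measured, 10 were called higher at 6 hours and 0 lower, the median was 1.22, and in all 12 both 6-hour arrays lay above all later ones. The largest called differences were those of Pdk4 (2.80), a kinase that restrains glucose oxidation, Fkbp5 (2.77), a chaperone of the glucocorticoid receptor, Cdkn1a (1.52), a cell cycle inhibitor, and Klf15 (1.51), a transcription factor. By rank products 2 of the 12 were lower in PNY, Zbtb16 (mean difference -0.78) and Klf15 (-0.59), and 0 were higher. In the other lists of pathways named here 0 genes were called between PNY and SHAM. The lists were chosen with results of these data known, and their counts are a description.

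**Figure D4:**
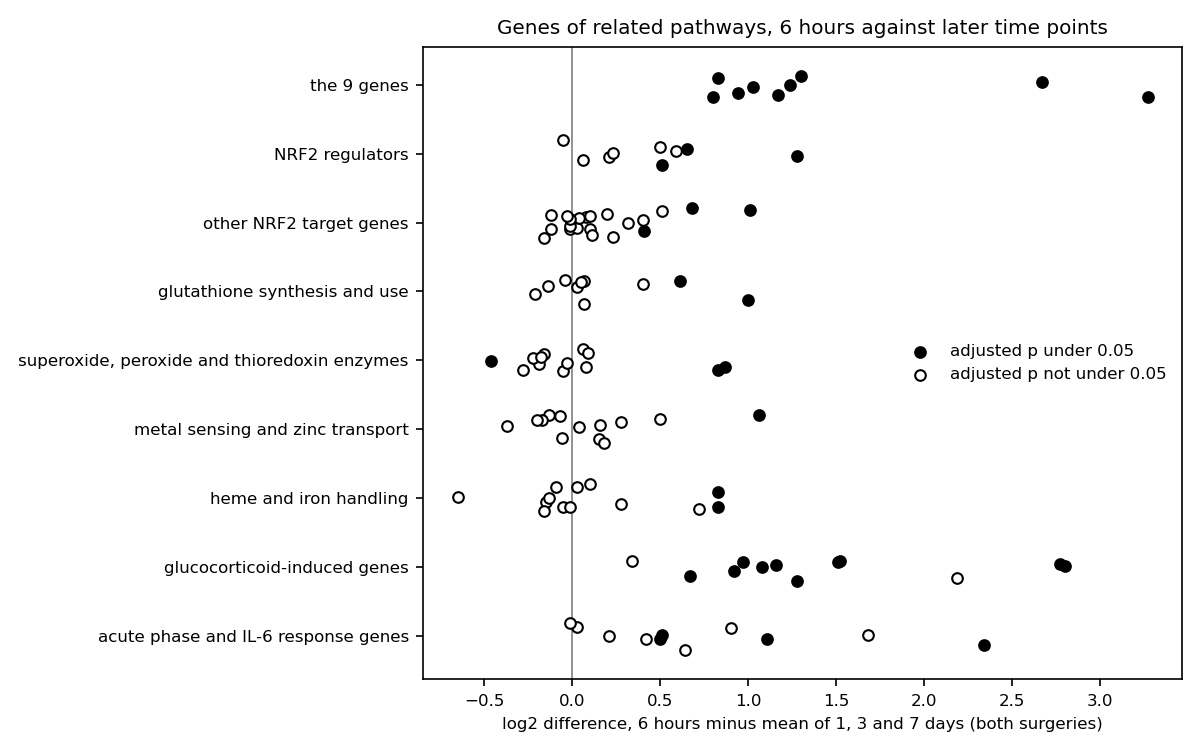
Log2 difference between 6 hours and the mean of 1, 3 and 7 days on the horizontal axis, over both surgeries, with each point a gene and each row a list; filled points have a limma adjusted p under 0.05 over all probe sets. All of the 9 genes are filled and lie between 0.80 and 3.27, whereas most points of the other NRF2 target genes lie near 0 (median 0.10).

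Over all 8 arrays the profiles of the 9 genes were alike, but not over the later ones alone. Pearson's r between pairs of the 9 genes ran between 0.755 and 0.996 (36 pairs, median 0.918) over all 8 arrays, but between -0.867 and 0.841 (median 0.177) over the 6 later arrays. These are descriptions over arrays that share their times. Of the 4022 genes above the median level that ranged at least 1.5-fold over the arrays, Mt2 was the nearest to Mt1 (r = 0.996) and Mt1 the nearest to Mt2. After it, the genes nearest to Mt1 were Cdc42ep4 (r = 0.9949), Sema7a (0.9935), Cdkn1a (0.993) and Fkbp5 (0.9929). Those nearest to Mt2 were Sema7a (0.9925), Srxn1 (0.9891), Cebpd (0.9886) and Maff (0.9882).

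Nearest to Hmox1 were Kcnip3 (r = 0.9911) and Trib3 (0.9907), to Gclm Trim24 (0.9961) and Agfg2 (0.9879), and to Srxn1 Fmnl2 (0.9935) and Il1r2 (0.9926). Il1r2, a decoy receptor for IL-1 that neutrophils carry, ranged over 3.75 log2 units. For Nqo1 the nearest was Plekhf1 (0.9688), for Txnrd1 Trim29 (0.9937) and for Slc7a11 Sgtb (0.9803).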

How the data were processed

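The authors deposited log2 expression values for 8 arrays, 1 per surgery and time point, made from the scanned arrays by RMA (background correction, quantile normalization, summarization to 1 value per probe set); the version is not given in the sources used here. Quantile normalization gives all arrays like distributions, so a shift of all genes could not be seen. Of 45101 probe sets, 64 controls were left out and 45037 tested; 34945 carry 1 gene symbol in the array annotation, 932 several and 9160 none, and genes are named only from the first, each by its brightest probe set on average. Of the 18193 symbols, 18145 are in the RefSeq gene table.

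Rank products were computed by own code (Python 3.11.15, numpy 2.4.6, pandas 2.3.3) with 1000 permutations, 100 for alternatives; calls needed P under 0.001 and a 1.5-fold change. limma 3.58.1 (R 4.3.3) gave the fits, with Benjamini-Hochberg adjustment. Both were tested on simulated data. Figures used matplotlib 3.10.9. Precision is limited by the number of arrays.

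Time points pair the arrays, less clearly at late times. Deviations from the surgery means correlated over probe sets with r = 0.605, 0.357, 0.302 and 0.295 from the earliest to the last time (the PNY array of 7 days and the SHAM array of 3 days had 0.34), and time point as a block was an alternative. Others were a filter at the median level, centring, a repeat of the quantile normalization, averaging the probe sets of each gene, a trended robust prior, other contrasts, and leaving out arrays or time points. Named genes were the 9, at most 4 per direction of each list past a threshold, and the 5 most alike by Pearson's r; a few of the latter are printed, and list genes named without a call were chosen for their role after their values were seen. List genes that matched no single symbol were not analysed here. The 9 genes, lists and tests were chosen with earlier results of these data known.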

Additional observations from a re-analysis of the deposited data

Results flagged for a closer look

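Within each surgery the 4 time points were checked for 1 array far from the other 3, by the gap to the nearest value as a share of the range, against Dixon's critical value for 4 samples. Of 18 sets of 4 arrays, 9 were singled out, and in each the 6-hour array was the highest. The share was 0.874 in PNY and 0.843 in SHAM for Mt1, and 0.83 in PNY and 0.876 in SHAM for Mt2. For Hmox1 it was 0.945 in PNY and 0.89 in SHAM, the PNY value being the largest of all. Srxn1 in PNY had 0.859. Nqo1 (0.853) and Gclm (0.923) were singled out in SHAM and not in PNY. The 4 arrays are different times and not replicates of 1 condition, and the genes moved together over the same arrays. The rate of about 1 in 20 that goes with the critical value is therefore no measure of chance here. The count restates the difference between 6 hours and later, and how many of all genes this rule singles out is not given.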

How the results depend on the processing

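The difference between 6 hours and later kept its direction for all 9 genes under every alternative. The count called was 7 to 9 with changed processing or contrasts, and 4 to 9 when 1 array was left out, the lower counts coming from leaving out an array of 6 hours, which leaves 1 such array. Above the median level 8 were called, since Slc7a11 was then not tested. Mt1 ranged down to 1.60 with the mean of its 2 probe sets. Without a minimum fold change 1 gene (Mt2) was called between PNY and SHAM, and 0 to 1 when 1 array was left out. With time point as a replicate block 0 were called, by limma or by rank products over same-time pairs, and the block changed no other call. The interaction gave 0 under every alternative.

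Values of PNY minus SHAM near 0 changed sign. With the mean of probe sets they were 0.01 for Gclc and 0.03 for Gclm, and with centred arrays 0.00 for Txnrd1. Without 6 hours they were 0.03 for Gclm and 0.01 for Txnrd1, without 3 days 0.01 for Gclm and 0.02 for Txnrd1, and without 7 days 0.00 for Gclc and -0.04 for Mt1. Leaving out 1 array leaves unequal times, and the ranges were -0.63 to 0.71 for Mt1, -0.53 to 1.11 for Mt2, -0.24 to 0.41 for Hmox1, -0.00 to 0.51 for Nqo1, -0.24 to 0.16 for Gclc, -0.23 to 0.24 for Gclm, -0.24 to 0.34 for Srxn1, -0.20 to 0.21 for Txnrd1 and -0.03 to 0.58 for Slc7a11. The late minus early PNY effect with 6 hours alone as early was 0.21 for Gclm and 0.53 for Nqo1, and with centred arrays -0.00 for Txnrd1. Without 1 array it ran between -1.16 and 1.30 for Mt1, -1.49 and 1.63 for Mt2, -1.07 and 0.53 for Hmox1, -0.81 and 0.61 for Nqo1, -0.56 and 0.39 for Gclc, -0.65 and 0.35 for Gclm, -0.67 and 0.47 for Srxn1, -0.52 and 0.55 for Txnrd1, and -1.02 and 0.00 for Slc7a11. For PNY minus SHAM, leaving out an array of 6 hours takes the high value from 1 surgery only. Mt2 was thus -0.53 without the PNY array of 6 hours and 1.11 without the SHAM array of 6 hours. The cause of the remaining sign changes was not tested. Each array pools 8 mice, so differences between mice cannot be seen.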

Other observations

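Acute phase and IL-6 response genes were partly higher at 6 hours, with 4 of 11 called higher, 0 lower and a list median of 0.51. These were Saa1 (2.34), an acute phase protein, Socs3 (1.11), a feedback inhibitor of IL-6 signalling, Osmr (0.51), the oncostatin M receptor, and Stat3 (0.50), the transcription factor of that pathway. Il6 itself did not pass (limma adjusted p = 0.203), and its mean joins unlike values, a difference between surgeries that is given with no test: at 6 hours it had 5.09 in PNY, within its later PNY range of 4.27 to 5.73, and 7.91 in SHAM, above its later SHAM range of 3.92 to 5.10. In marker lists, Tcf21 (-0.78), a lung fibroblast transcription factor, was lower at 6 hours. It was the 1 called of 6 endothelial and mesenchymal markers, of which 3 were higher on average (median -0.09). Adgre1 (-0.61), the macrophage antigen F4/80, was the 1 called lower of 10 macrophage markers (median -0.36), with 2 higher on average. Of 8 housekeeping genes 0 were called either way, and their median was -0.05. In PNY, Alas2, the first enzyme of erythroid heme synthesis, was lower by rank products (mean difference -0.89). It was the 1 called of 4 erythroid markers measured, whose median difference between PNY and SHAM was -0.04.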
